A study of Brassica oleracea with 7 samples.

Results

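In Brassica oleracea, the species of cabbage and broccoli, silique was compared with flower bud as the last and first stages of a reproductive series whose middle stage was the open flower. Of 39481 genes with a measured level, the 27278 with an FPKM of 1 or more in silique or in bud were compared. FPKM counts sequenced fragments relative to the length of the gene model and to the size of the library. The silique, the seed pod of the cabbage family, was taken 15 days after pollination. The bud was chosen by its length of 0.8 cm. Both organs were cut from plants of a greenhouse at 15 to 25 °C, as were flowers that opened on the same day and leaf, stem and root of 7 weeks. Callus, a mass of dividing cells, was grown in tissue culture at 25 °C. The labels used here give no cultivar or line for the plants and no number of plants per library, and no group carried a treatment. Poly(A)+ RNA was sequenced from 1 library per tissue, 7 in all, so no difference below has a replicate check and each one is a difference between these libraries.

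A flower bud of this family encloses sepals, petals, stamens and pistil, and in the anthers the tapetum feeds the developing pollen and supplies material for its wall. After pollination the petals and stamens are shed and the pistil grows into the silique, whose green walls enclose the young seeds. Embryo growth, seed coat formation and the first filling of reserves take place inside it. The deposited table pairs its gene IDs with no names, and a search of the RefSeq gene table of the species (assembly BOL, 53125 genes) matched 0 of them. Genes are therefore given by ID, and neither organ could be checked against marker genes of pollen, tapetum, seed or leaf. Both organs were whole, so fewer cells of a type and less RNA per cell cannot be told apart.

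From the widths of the deposited intervals, silique had 9880774 fragments within gene models and bud 10446422, against 8459141 to 10598033 in the other 5 libraries. A value above 0 rested on a median of 70.0 fragments in silique and 72.0 in bud. The fragments in gene models were 71.3% of those by which FPKM had been divided in silique and 76.5% in bud.

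Most genes had like levels in the 2 organs, and more genes were far lower in silique than far higher. The difference is log2((silique + 1)/(bud + 1)), and a gene was called higher or lower where its size was 2 or more (4-fold). In silique 1174 genes were called higher, 4.3% of those compared, and 1886 were called lower, 6.91%, so that 11.2% were called in all. Higher genes were thus 38.4% of the 3060 called (95% Wilson interval 36.7% to 40.1%, which treats genes as independent draws). At 2-fold, 3450 genes were higher (12.6%) and 4758 lower (17.4%). The other 19070 genes (69.9%) differed by less than 2-fold, and the median difference over all compared genes was -0.02. Both organs detected 21594 genes at an FPKM of 1 or more, while 2343 reached that level in silique but not in bud and 3341 in bud but not in silique.

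**Figure D1:**
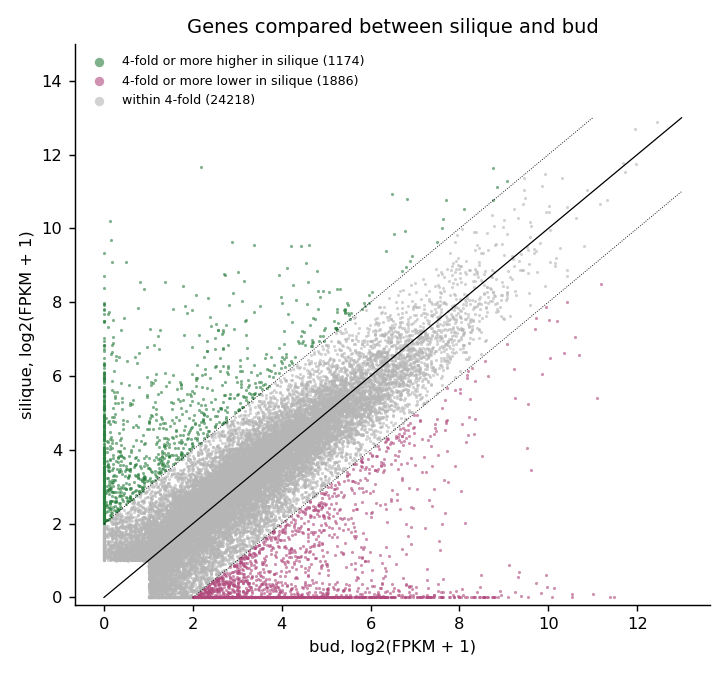
Level of each compared gene in silique (vertical axis) against bud (horizontal axis), both as log2(FPKM + 1), with 1 library each. The solid line marks equal levels and the dotted lines 4-fold differences. The 1886 genes lower in silique outnumber the 1174 higher ones, and many of each lie along the axis of the organ in which they are high.

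The excess of lower genes was wider among large differences. At 16-fold or more, 283 genes were higher in silique and 540 lower, and at 64-fold or more 63 were higher and 175 lower. At 256-fold or more 8 genes were higher and 44 lower. The excess was narrower among abundant genes, taking each gene by the higher of its levels in the 2 organs. Among the 8917 genes at 1 to 5 FPKM, 1.46% were called higher in silique and 2.97% lower, a ratio of 2.04 lower genes per higher one. Among the 1514 genes at 100 FPKM or more, 11.7% were called higher and 14.9% lower, a ratio of 1.28. The pseudocount limits the differences that low genes can reach, so the first of these bins can show fewer calls by construction.

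The limit of 1 FPKM lay in a dense part of the range. The gene just inside it was at 0.789 FPKM in silique, on 4 fragments, and 1.0002 FPKM in bud, on 5 fragments, and the gene just outside it at 0.538 FPKM in silique and 0.9998 FPKM in bud. No gene near this limit could be called, since a 4-fold difference on the FPKM + 1 scale needs 3 FPKM in the higher organ.

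The genes with the largest differences were abundant in one organ and near or at 0 in the other. Bol004744, on Scaffold000316 from 332592 to 334645, stood at 1184 FPKM in silique (deposited interval 1168 to 1199). In bud it was at 0.105 FPKM (0 to 0.252), on 2 fragments. Its log2 difference was 10.07, with a range of 9.87 to 10.23 from the interval bounds. It was at 1.99 FPKM in stem, 0.414 FPKM in leaf and 0.0522 FPKM in root, and was listed at 0 in flower and callus. Silique was therefore the one tissue of the 7 in which it exceeded 2 FPKM. Bol025663 (Scaffold000086, 643380 to 643973), a gene without introns, reached 829 FPKM in silique (809 to 849), against 0.123 FPKM in bud (0 to 0.370), for a log2 difference of 9.53 (9.21 to 9.73). It was at 509 FPKM in stem, 161 FPKM in leaf, 56.5 FPKM in flower, 16.1 FPKM in root and 14.1 FPKM in callus. For this gene bud was the low tissue of the series, and silique and stem were the 2 highest. No gene without introns in the whole table exceeded 15.8 FPKM in bud, as described below.

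In the other direction Bol014756 (Scaffold000171, 917499 to 918215) was listed at 0 in silique and stood at 2833 FPKM in bud (2784 to 2882). In silique 3 fragments would have been 0.628 FPKM, so it was at least 4512-fold lower there, with the floor of 3 fragments set per library. This fold, like the later ones given as at least, divides the FPKM of the higher organ by the floor and leaves out its interval. Bol014756 was at 3.98 FPKM in flower, 2.94 FPKM in leaf and 1.48 FPKM in root, and listed at 0 in stem and callus. Bol045890 (Scaffold000002, 6843302 to 6844783) was listed at 0 in silique and stood at 2673 FPKM in bud (2631 to 2715). With a floor of 0.488 FPKM in silique it was at least 5479-fold lower there. In flower it was still at 40.9 FPKM, and in the other 4 tissues between 0.181 and 2.12 FPKM. Its locus overlaps a neighbouring one, and no strand-marking step is described in the labels, so the reads of the 2 loci may not be separable. These 2 genes ranked 6 and 7 by FPKM in bud, and Bol004744 ranked 35 in silique.

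**Figure D2:**
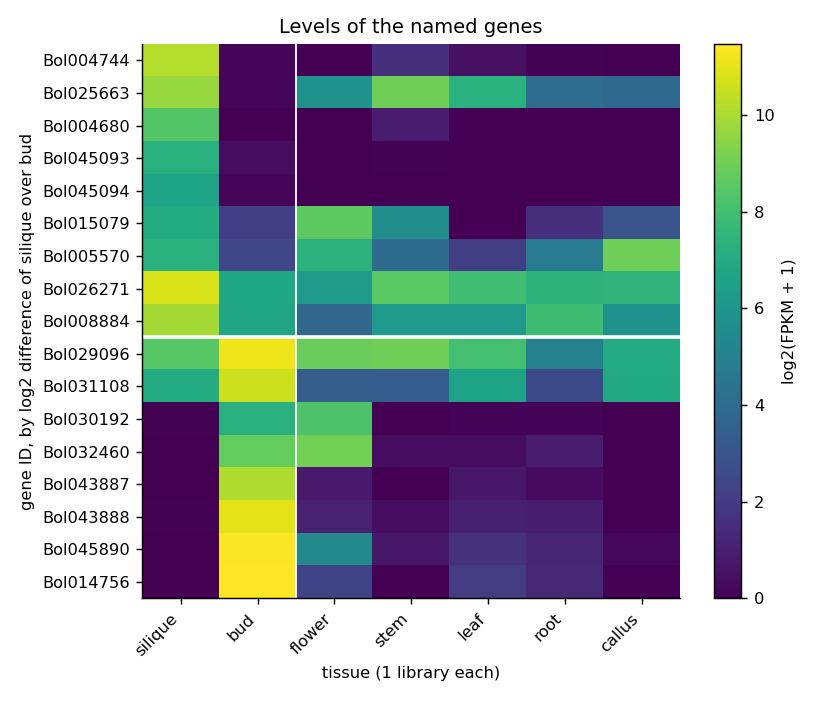
Level of the 17 named genes, as log2(FPKM + 1) by colour, in silique, bud and the other 5 tissues (1 library each), ordered from the gene highest in silique over bud (top) to the lowest (bottom). Bol004744 is bright in silique alone and Bol014756 in bud alone, while Bol025663 is low in bud alone and Bol026271 is well above 0 in all 7 tissues.

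Of the called genes, 377 of the 1174 higher in silique were listed at 0 in bud, and 792 of the 1886 lower ones were listed at 0 in silique. Called or not, 661 genes reached 1 FPKM in silique and were listed at 0 in bud, at a median of 3.86 FPKM and a highest level of 644 FPKM. Likewise 1243 genes reached 1 FPKM in bud and were listed at 0 in silique, at a median of 4.84 FPKM and a highest level of 2833 FPKM. A level of 100 FPKM or more was reached in silique by 19 of the silique set and in bud by 66 of the bud set. Genes without introns, described below, were 167 of the 661 and 12 of the 1243. For genes with an implied coding length, 3 fragments would have been a median of 0.372 FPKM in bud for the silique set and 0.283 FPKM in silique for the bud set. Absence below those levels could not be seen at this depth. Flower detected 39 of the 661 silique genes and 599 of the 1243 bud genes.

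The genes called higher in silique were mostly low in flower too. Their median was 17.8 FPKM in silique (quartiles 7.84 and 51.0) and 0.464 FPKM in bud (0 and 2.97). In flower it was 0.595 FPKM (0 and 8.76). Callus and stem had the highest medians after silique, at 1.03 and 0.742 FPKM, and leaf and root the lowest, at 0.0972 and 0.105 FPKM. Silique was the highest of the 7 tissues for 840 of these genes (71.6%), callus for 101, stem for 91, flower for 66, root for 54 and leaf for 22. Over all compared genes silique was highest for 13.2%. Genes chosen as far higher in silique than in bud are favoured to have silique highest. Without intronless genes, silique was highest for 68.7% of the higher genes and 12.6% of all compared genes. The medians of the higher genes were then 19.1 FPKM in silique and 0.758 FPKM in bud, with 0.991 FPKM in flower, 2.21 FPKM in callus, 1.87 FPKM in stem, 0.255 FPKM in leaf and 0.192 FPKM in root, so the order of leaf and root turned.

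The genes called lower in silique kept an intermediate median in flower. It was 0.121 FPKM in silique (quartiles 0 and 1.25), 15.8 FPKM in bud (7.04 and 43.9) and 3.56 FPKM in flower (0.544 and 17.2). In stem, leaf, root and callus it lay between 0.0928 and 0.213 FPKM. Bud was the highest tissue for 1233 of them (65.4%), flower for 364 (19.3%) and leaf for 148 (7.85%). Over all compared genes bud was highest for 16.3%, flower for 12.1% and leaf for 19.2%, and the choice of genes far above silique in bud favours bud. In flower 1288 of the 1886 (68.3%) reached 1 FPKM, against 26.4% (root) to 35.9% (callus) in the other 4 tissues. Of all compared genes 81.3% reached 1 FPKM in flower.

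**Figure D3:**
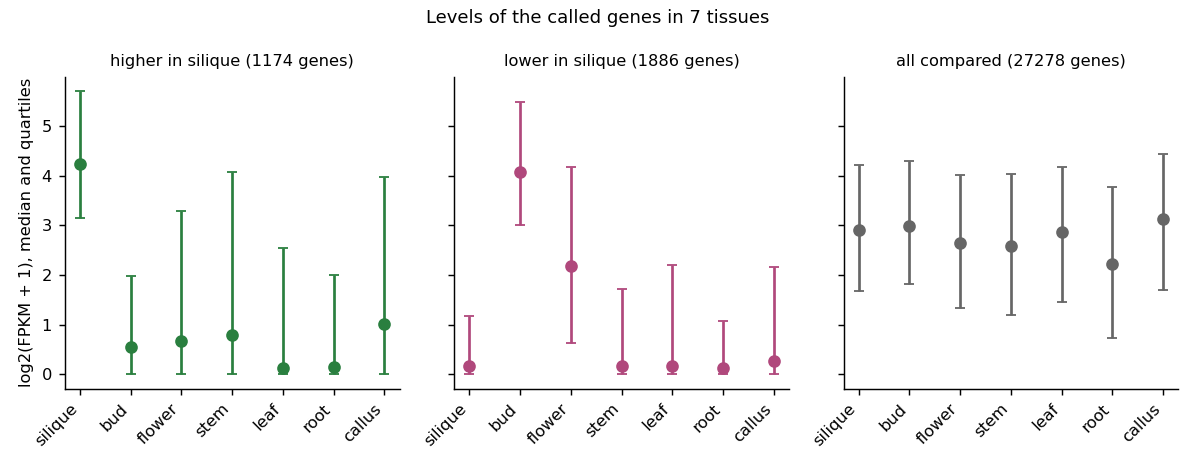
Median (point) and quartiles (bars) of log2(FPKM + 1) in each of 7 tissues, over genes higher in silique, genes lower in silique and all compared genes. The genes lower in silique have a median of 15.8 FPKM in bud and 3.56 FPKM in flower. The flower median is above theirs in stem, leaf, root and callus but below the 5.24 FPKM of all compared genes in flower. The genes higher in silique have medians of 1.03 FPKM or less in each other tissue (2.21 FPKM or less without intronless genes).

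Flower lay nearer to bud for most genes higher in silique. On the log2(FPKM + 1) scale this held for 942 of 1174 (80.2%), or 78.1% without intronless genes, while flower was nearer to silique for 1048 of the 1886 genes lower in silique (55.6%). Over all compared genes flower was nearer to silique for 51.5%. In flower the fragments in gene models were 61.2% of those by which FPKM had been divided, against 71.3% in silique and 76.5% in bud. The median log2 difference of flower over all compared genes was -0.287 from bud and -0.266 from silique. Whether this shifted flower towards the organ with the lower level in each list was not tested. Flower lay at or between the levels of the 2 organs for 761 of the higher genes (64.8%) and 1240 of the lower genes (65.7%), against 29.1% of all compared genes. Called genes have by their choice a wide interval between the organs, so this contrast with all genes is a description only. Flower was above both organs for 100 of the higher genes (8.52%) and 389 of the lower genes (20.6%), against 24.0% of all compared genes. It was below both for 313 of the higher genes (26.7%) and 257 of the lower genes (13.6%), against 46.9% of all compared genes. The wide interval bears on these shares too. In addition, 377 of the higher genes were listed at 0 in bud and 792 of the lower genes at 0 in silique. For these genes flower could not lie below both, and a flower level of 0 counted as at or between.

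Some genes were higher in flower than in either organ while differing strongly between the 2. Bol015079 (Scaffold000168, 774460 to 776194) had 136 FPKM in silique and 3.37 FPKM in bud, a log2 difference of 4.97 (4.62 to 5.39), and at 394 FPKM in flower. It was at 49.9 FPKM in stem, 7.04 FPKM in callus and 2.02 FPKM in root, and was listed at 0 in leaf. Bol005570 (Scaffold000297, 434390 to 436127) had 162 FPKM in silique and 4.35 FPKM in bud, a log2 difference of 4.93, and at 166 FPKM in flower. The deposited intervals of flower and silique overlap for this gene, and its highest level was in callus, at 484 FPKM. Among genes lower in silique, Bol032460 (Scaffold000049, 2008904 to 2009246) was listed at 0 in silique, at 438 FPKM in bud and at 522 FPKM in flower. It was at least 497-fold lower in silique than in bud, and did not exceed 0.891 FPKM in the other 4 tissues. Bol030192 (Scaffold000062, 1786327 to 1789294) was at 0.0470 FPKM in silique, on 1 fragment, at 153 FPKM in bud and at 307 FPKM in flower, a log2 difference of -7.20 between silique and bud.

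A larger share of the genes higher in silique was found in no other tissue, and many genes lower in silique had flower as their one further tissue. In the first list 457 genes (38.9%) reached 1 FPKM in silique alone of the 7 tissues, at a median of 9.67 FPKM and a highest level of 414 FPKM. In the second, 393 (20.8%) did so in bud alone, at a median of 9.10 FPKM and a highest level of 1110 FPKM. Intronless genes were 114 of the 457 and 1 of the 393. Another 642 genes lower in silique were detected in 1 of the other 5 tissues, and for 562 of these (87.5%) that tissue was flower. For the 102 such genes higher in silique it was flower for 34, stem for 32, callus for 25, root for 7 and leaf for 4. Of all compared genes 6.81% were detected in none of the other 5 tissues and 6.49% in 1 of them. Which tissue that was over all compared genes was not counted. Genes chosen as high in one organ and low in the other are favoured to be found in few tissues. At the other end, 259 higher genes (22.1%) and 284 lower genes (15.1%) were detected in all 5, as were 59.6% of all compared genes. The 259 had a median of 56.1 FPKM in silique and 5.41 FPKM in bud, and the 284 had 4.81 FPKM in silique and 39.3 FPKM in bud.

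**Figure D4:**
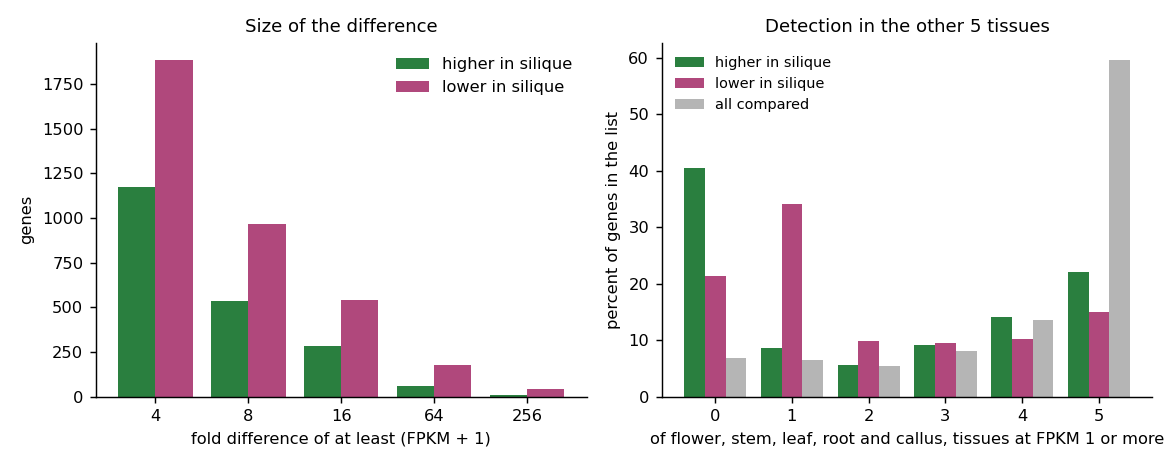
Left, number of genes higher (green) or lower (magenta) in silique than in bud at each minimum fold difference on the FPKM + 1 scale. Right, percent of each list by how many of flower, stem, leaf, root and callus reached an FPKM of 1; 40.5% of the higher genes were detected in none of the 5, against 21.4% of the lower genes and 6.81% of all compared genes.

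The called genes made up a sizeable part of the summed FPKM of the organ in which they were high. Their choice by the levels in silique and bud favours this. Those higher in silique took 14.0% of the summed FPKM in silique and 1.19% in bud. Those lower in silique took 1.02% in silique and 17.4% in bud. A few abundant genes carried most of this. In silique 177 of the 1174 were at 100 FPKM or more and held 74.7% of the list's sum, and in bud 226 of the 1886 held 68.8%. The higher genes took 7.27% of the sum in stem and 6.06% in flower, and the lower genes took 8.88% in flower and 6.09% in leaf.

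The most abundant genes were shared in part. Of the 100 most abundant genes in silique 43 were also among the 100 most abundant in bud. All 100 of silique took 20.3% of the summed FPKM in silique, and the same 100 genes took 11.0% in bud, where their median was 454 FPKM against 847 FPKM in silique. By the 4-fold limit 28 of these 100 were higher in silique. Of the 100 most abundant in bud 36 were called lower in silique, and 18 were under 1 FPKM there, whereas 5 of the silique genes were under 1 FPKM in bud. Among genes at 100 FPKM or more in either organ 11.7% were called higher and 14.9% lower, against 4.3% and 6.91% of all compared genes. Ranking by the level in one organ favours calls towards that organ, so these counts are a description only.

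Some called genes were abundant in both organs. Of the 605 genes at 100 FPKM or more in each, 15 were called higher in silique and 9 lower, against 4.3% and 6.91% of all compared genes. A gene called here must stand at about 4 times that level or more in one organ, so the requirement itself holds these counts down. Bol026271 (Scaffold000084, 1254302 to 1255145) had 1773 FPKM in silique and 111 FPKM in bud. Its log2 difference was 3.98 (3.87 to 4.10). Its other values ran from 72.4 FPKM in flower to 375 FPKM in stem. Bol008884 (Scaffold000242, 750845 to 756781) had 973 FPKM in silique and 109 FPKM in bud, a log2 difference of 3.15, and its next tissue was root at 236 FPKM. Its locus overlaps a neighbour. Bol031108 (Scaffold000056, 965276 to 966041) had 133 FPKM in silique and 1547 FPKM in bud. Its log2 difference was -3.53 (-3.67 to -3.40). It was at 9.47 FPKM in flower, so the open flower lay below both of the other stages. Bol029096 (Scaffold000067, 93380 to 94082) had 357 FPKM in silique and 2344 FPKM in bud, a log2 difference of -2.71, and between 32.1 and 493 FPKM in the other 5 tissues.

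Of 342 compared genes without introns, 137 were called higher in silique and 2 lower, and the rest were called in neither direction. Most of the 342 passed the filter of 1 FPKM only through silique, since 306 reached it there and 74 in bud. The filter thus favours calls higher in silique among them, and the shares below are a description only. Coding lengths could be worked out from the deposited values for 36413 genes, and a gene was taken as intronless where that length was within 0.2% of its locus span. Of the 1135 genes higher in silique with a length, 137 were intronless (12.1%, Wilson interval 10.3% to 14.1%). Of the 1858 lower genes 2 were (0.108%, 0.0295% to 0.392%), and of all compared genes 1.28%. Yet the 2180 intronless genes of the whole table did not exceed 15.8 FPKM in bud, where 838 had any fragment. They reached 829 FPKM in silique, where 1129 had one, and between 56.5 FPKM (flower) and 509 FPKM (stem) in the other 5 tissues, where 653 (leaf) to 1083 (callus) had one. At 1 FPKM or more there were 306 in silique and 74 in bud, with 106 in flower, 148 in leaf, 175 in stem, 309 in root and 377 in callus. Silique was thus not the tissue with most of them. Between the lowest and highest ID number 6361 numbers have no row and were not analysed here, and whether intronless genes abundant in bud are among them is not known. Without intronless genes 1037 of 26936 genes were higher in silique (3.85%) and 1884 lower (6.99%).

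The leading intronless gene besides Bol025663 was Bol004680 (Scaffold000317, 204548 to 205522), at 333 FPKM in silique and listed at 0 in bud. There 3 fragments would have been 0.225 FPKM, so it was at least 1478-fold higher in silique. It was at 0.827 FPKM in stem and listed at 0 in the other 4 tissues. No intronless gene at 10 FPKM or more in either organ was lower in silique than in bud. Among genes with introns the median coding length was 954 bases for those higher in silique, 834 bases for those lower and 1038 bases for all compared. Their introns took a median of 37.9% of the locus in the higher genes, 37.3% in the lower genes and 43.1% in all compared genes. Genes of both called lists were thus shorter at the median than the compared genes as a whole.

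Most called genes had no neighbour called in the same direction, but the share that had one was above that of compared genes beside a called gene. Neighbours are successive rows by position on a scaffold. Of the genes higher in silique 162 (13.8%, Wilson interval 11.9% to 15.9%) had such a neighbour, while 5.74% of all compared genes lay beside a gene higher in silique. Of the lower genes 303 (16.1%, 14.5% to 17.8%) had one, against 9.55% of all compared genes beside a lower gene. Such neighbours come in pairs or runs, so these intervals, which treat genes as independent draws, are too narrow. Runs of 3 or more adjacent genes numbered 7 for higher genes, with 26 genes in all, and 25 for lower genes, with 81 genes.

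The longest run of higher genes held 5 genes in 15313 bases of Scaffold000001_P2, from 3159618 to 3174930. They were at 3.97 to 152 FPKM in silique, at 0.0276 to 0.296 FPKM in bud, and 0.162 FPKM was their highest level in the other 5 tissues. All 5 loci span 835 bases. Bol045091, Bol045092 and Bol045093 had the same value in stem, 0.0552 FPKM, and in callus, 0.0303 FPKM. In bud Bol045091 and Bol045093 had the same value, 0.296 FPKM. The implied fragments of Bol045093 were not whole in bud (2.2), stem (0.4) and callus (0.2). A coding length could be worked out for 2 of the 5. Whether the 5 genes are near-identical copies, between which reads can be split, was not tested. The level of each single gene is therefore uncertain, and the 5 calls may not be independent. The 2 leading members were Bol045093, at 152 FPKM in silique and 0.296 FPKM in bud, and Bol045094, at 99.5 FPKM in silique and 0.134 FPKM in bud. Their log2 differences were 6.89 (6.41 to 7.34) and 6.47 (6.06 to 6.75). Silique was the one library in which any of the 5 reached 1 FPKM.

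The longest run of lower genes held 6 genes in 19893 bases of Scaffold000004, from 3312657 to 3332549. In silique 4 of the 6 were listed at 0 and the highest was at 7.67 FPKM, while in bud they stood at 37.5 to 2057 FPKM. Bol043888 (3319169 to 3321616) was at 0.0619 FPKM in silique, on 1 fragment, against 2057 FPKM in bud. Its log2 difference was -10.92 (-11.02 to -10.75). Bol043887 (3316452 to 3317349) was listed at 0 in silique and at 1084 FPKM in bud, and so at least 2806-fold lower in silique. In flower Bol043888 was at 1.05 FPKM and Bol043887 at 0.773 FPKM, both far below their bud levels. The sixth gene of the run differed from the rest: it had a log2 difference of -2.15 and was at 49.4 FPKM in leaf, above its 37.5 FPKM in bud.

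**Figure D5:**
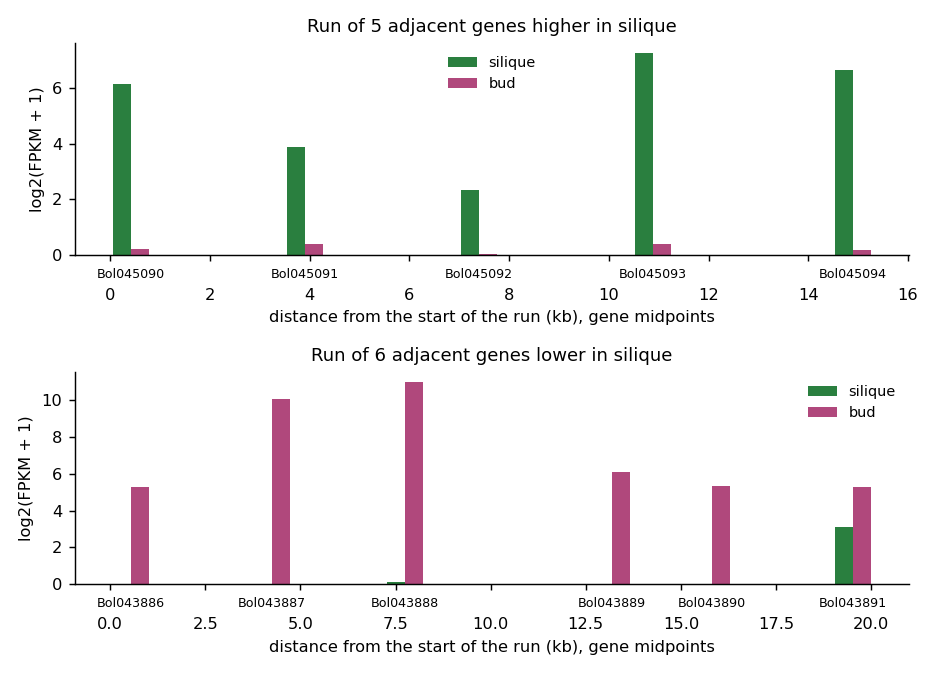
Levels in silique (green) and bud (magenta) as log2(FPKM + 1) along the longest runs of adjacent genes higher (top, 5 genes) and lower (bottom, 6 genes) in silique, by distance from the start of the run in kilobases. In the upper run bud stays below 0.3 FPKM throughout, and in the lower run silique reaches 7.67 FPKM in the last gene and is near or at 0 in the other 5.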

How the data were processed

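Poly(A)+ RNA of 7 tissues was sequenced as paired ends, per the labels' protocols, with 1 library per tissue. The deposited table gives FPKM and its interval for each gene, per the file headers. The submitters' processing notes name TopHat 1.0.13. The quantifier, build and annotation they used are not stated in those notes, the labels or the headers, so coordinates are those of the table's own scaffolds, with starts raised by 1 to count from 1. How reads that match several genes were assigned is not given either.

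Implied fragments came from the deposited intervals, with the part above the FPKM taken as 2 SD of counting error. Of 211859 values of 1 to 3000 fragments, 89.2% were whole within 0.02, or, for larger counts n, within 3e-06 times n to the power of 1.5. Genes whose locus span equals the length used gave the divisor of each column except bud, and from it coding lengths. The divisor of bud was the median that the coding lengths from the other tissues implied. The final coding lengths were medians over all tissues with a whole number of fragments. Of these lengths, 99.8% were multiples of 3 within 0.3 bases, so they hold no UTRs. Intervals and floors cover counting error only.

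Differences are log2((silique + 1)/(bud + 1)), with a pseudocount of 1, a filter of 1 FPKM in either organ and a limit of 4-fold. No p-value was computed. Calculations used Python 3.11.15 with pandas 2.3.3 and scipy 1.17.1, and the steps were tested on simulated counts. Named genes are at most 2 higher and 2 lower per class, by the largest difference among genes at 10 FPKM or more in either organ. The classes are all compared genes, genes highest in silique or bud of the 7 tissues, genes higher in flower than in silique and bud, called genes at 100 FPKM or more in both organs, the longest runs and intronless genes. The second class gave the same 4 genes as the first. The genes just inside and outside the 1 FPKM limit, and the last gene of the longer run, were described outside this rule. The members and lists were chosen with earlier results of these data known. Lists of seed, pollen and leaf markers could not be applied without gene names.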

Additional observations from a re-analysis of the deposited data

How the results depend on the processing

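No paired analysis was possible because silique and bud are single libraries. The settings without intronless genes for the position of flower and for neighbouring genes were chosen after seeing the data. A pseudocount of 0.1 gave 2081 higher and 3191 lower genes in silique, and a 2-fold limit gave 3450 and 4758. In each setting tried, lower genes outnumbered higher ones. The share of higher genes among those called was 40.5% after rescaling to equal upper quartiles, 40.9% per fragment in gene models, 40.7% after rescaling to equal sums, 35.5% without intronless genes and 42.0% at 2-fold. The median difference over all compared genes turned its sign, to 0.0455 with equal upper quartiles, 0.0622 per fragment in gene models and 0.0520 with equal sums, and was 0 with no filter on low values. The cause of these shifts was not tested. The other counts stayed within 1.5 times of those reported.

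After trimmed mean rescaling flower lay at or between the levels of the 2 organs for 67.8% of the higher and 63.0% of the lower genes. At 5 FPKM or more 0% of the lower genes were intronless. Without overlapping loci 14.5% of the lower genes had a neighbour called alike. Of the other values that answer a comparison, 49 stayed within the interval or the 1.5 times of the main value. Among log2 differences of named genes 60 stayed within the range from interval bounds and 42 moved beyond it, and none changed sign. A pseudocount of 0.1 moved those near 0 in one organ, such as Bol043888 from -10.92 to -13.63. The named genes at 100 FPKM or more in both organs stayed within their ranges with it. Filters and left-out genes leave the difference of a single gene as it is and were not repeated for it. With 1 library per organ, biological spread could not be measured, and levels under about 3 fragments could not be told from 0.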
